A study of Mus musculus with 12 samples.

Results

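The 10 genes described here are transcripts that mark monocytes: Ly6c2, Csf1r, Fcgr1, Fcgr4, Cd14, F13a1, Ms4a6c, Ace, Cebpb and Chil3. They were taken by symbol from a table of 21004 genes measured by RNA sequencing in mouse spleen, and all 10 were found. All 10 also passed the filter on low values, for which 1 group or more had to average 1 FPKM, as 13138 genes of the table did. FPKM is the number of sequenced fragments of a gene scaled by its transcript length and by the size of the library. The spleens came from ICR mice, an outbred stock, at 8 weeks of age. There were 4 groups of 3 libraries: busulfan with L.J. at 10 mg/kg, busulfan alone, L.J. at 10 mg/kg alone, and control. Busulfan is an alkylating agent that kills dividing cells of the bone marrow and is given before marrow transplants. The labels state neither what L.J. stands for nor the busulfan dose, the vehicle or how long after treatment the spleens were taken. FMT, named in the design text, appears in no sample label. The title of the series asks whether L.J. counters the harm of busulfan to the spleen.

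Monocytes are white blood cells made in the bone marrow from progenitors that they share with neutrophils, and the mouse spleen holds a reservoir of them in its red pulp. Classical mouse monocytes carry much Ly6C on their surface and enter inflamed tissue, while nonclassical monocytes carry little and patrol vessels. Both need the receptor for colony stimulating factor 1 in some measure, and several of their transcripts are also made by neutrophils, granulocyte precursors or macrophages. In whole spleen RNA, fewer cells of a type and less RNA per cell cannot be told apart.

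All libraries held a defining transcript of spleen. Spic, the factor of red pulp macrophages, was between 33.7 and 65.2 FPKM in all 12. Busulfan libraries 1 and 2 stood apart. Their score for 15 mature neutrophil genes, the mean of log2(FPKM + 1), was 8.46 and 7.64, against 3.64 to 4.93 in the other 10 libraries. Their score for 18 pancreatic acinar genes was 10.9 and 7.10, and L.J. library 3 had 8.06, against 0.31 to 5.24 in the other 9. The controls stood apart in a score for 12 hepatocyte genes, which was 0.93 to 1.59 in the 9 treated libraries and 1.83, 3.19 and 2.24 in controls 1 to 3. Whether each library is a different mouse is not stated, so p-values measure the spread between these libraries, which may be technical. Without read numbers the depth of each library is unknown.

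The 10 genes differed widely in level and in how much they varied. Ms4a6c and Csf1r averaged 81.2 and 62.3 FPKM over the 12 libraries, while Cd14 and Fcgr1 averaged 3.55 and 2.78 FPKM. Ms4a6c spanned 1.84-fold from its lowest to its highest library, Csf1r 1.98-fold, Ly6c2 9.43-fold and Chil3 61.3-fold. Busulfan libraries 1 and 2 were the 2 highest of all 12 for 5 of the 10 genes, Chil3, F13a1, Cebpb, Cd14 and Fcgr4. They were the 2 lowest for Ms4a6c. In busulfan library 3 the first 5 genes were each below busulfan 1 and 2, and 3 of them, F13a1, Cebpb and Cd14, were below every control. The spread within the busulfan group was the largest of the 4 groups for 8 of the 10 genes, all but Csf1r and Ace.

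**Figure D1:**
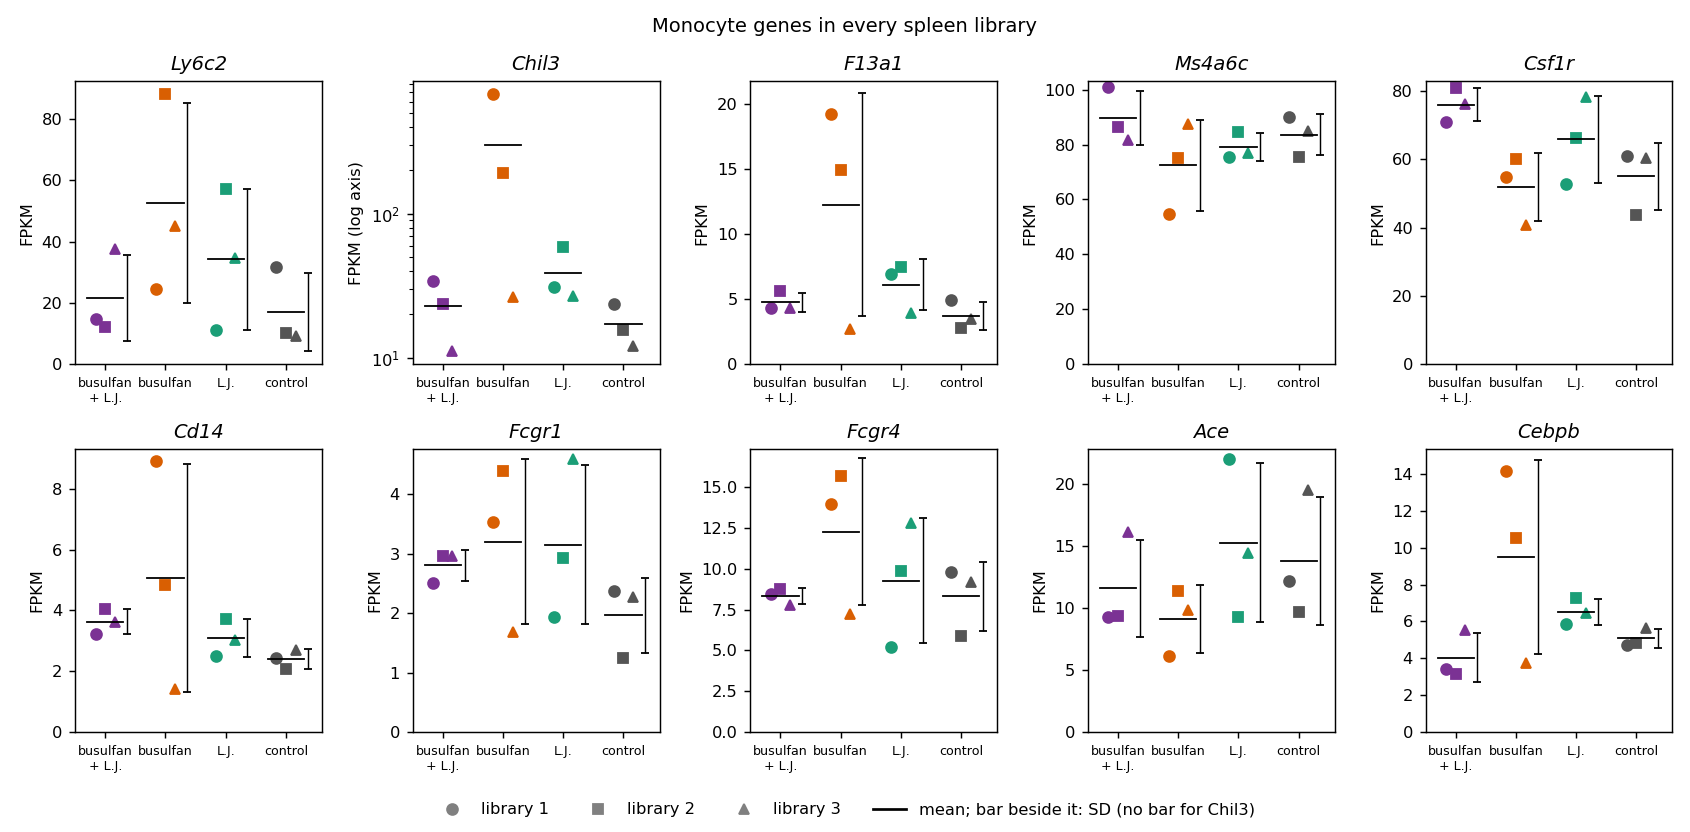
FPKM of each monocyte gene (vertical axis; logarithmic for Chil3, from 0 for the others) in the 4 groups (horizontal axis), with 1 point per library, a line at the group mean and, except for Chil3, a bar of 1 SD to each side of it. Busulfan libraries 1 and 2 are the highest points for Chil3, F13a1, Cebpb, Cd14 and Fcgr4, while busulfan 3 sits near or below the controls for all of these but Chil3.

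Upstream stretches from the RefSeq promoter table are shown for Chil3, F13a1, Cebpb and Fcgr4, which peaked in busulfan libraries 1 and 2, for Ms4a6c, which was lowest in both, and for Ly6c2, which was highest in busulfan 2 but not in busulfan 1, so that the start regions of genes with these patterns can be compared. Each is the 250 bases before the annotated start on build GRCm38.p6, the assembly of mm10, read 5′ to 3′ on the strand of the gene. For Ly6c2 and Ms4a6c that start lies within the gene coordinates given below, so the end of the stretch overlaps the gene. The capitals mark GAGGAA, the core of the sequence bound by PU.1, a factor that monocytes and neutrophils both need, on either strand (TTCCTC on the other).
Chil3 (chr3:106167565-106167814, minus strand): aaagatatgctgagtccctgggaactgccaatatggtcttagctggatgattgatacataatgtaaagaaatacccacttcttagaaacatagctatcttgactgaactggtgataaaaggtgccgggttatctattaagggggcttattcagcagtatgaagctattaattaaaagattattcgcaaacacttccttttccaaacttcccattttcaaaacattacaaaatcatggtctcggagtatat
F13a1 (chr13:37050245-37050494, minus strand): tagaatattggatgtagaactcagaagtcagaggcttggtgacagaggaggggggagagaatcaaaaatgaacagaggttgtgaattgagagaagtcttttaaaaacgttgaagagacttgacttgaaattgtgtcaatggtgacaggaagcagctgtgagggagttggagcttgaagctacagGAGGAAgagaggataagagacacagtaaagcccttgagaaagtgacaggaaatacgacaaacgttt
Cebpb (chr2:167688665-167688914, plus strand): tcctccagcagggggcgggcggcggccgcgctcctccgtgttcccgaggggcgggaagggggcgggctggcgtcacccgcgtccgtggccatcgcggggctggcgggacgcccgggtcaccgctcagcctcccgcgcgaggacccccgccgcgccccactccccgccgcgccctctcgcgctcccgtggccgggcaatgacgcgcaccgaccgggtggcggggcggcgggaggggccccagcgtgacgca
Fcgr4 (chr1:171018676-171018925, plus strand): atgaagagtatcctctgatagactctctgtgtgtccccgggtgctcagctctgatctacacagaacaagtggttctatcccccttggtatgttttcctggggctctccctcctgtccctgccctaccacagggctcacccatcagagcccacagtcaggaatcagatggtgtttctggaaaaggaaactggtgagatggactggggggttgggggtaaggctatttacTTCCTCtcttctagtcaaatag
Ms4a6c (chr19:11469118-11469367, plus strand): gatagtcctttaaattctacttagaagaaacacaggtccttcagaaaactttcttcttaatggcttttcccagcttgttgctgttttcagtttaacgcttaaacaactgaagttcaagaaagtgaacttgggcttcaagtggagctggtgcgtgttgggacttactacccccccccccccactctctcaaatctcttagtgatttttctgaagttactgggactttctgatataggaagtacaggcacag
Ly6c2 (chr15:75111972-75112221, minus strand): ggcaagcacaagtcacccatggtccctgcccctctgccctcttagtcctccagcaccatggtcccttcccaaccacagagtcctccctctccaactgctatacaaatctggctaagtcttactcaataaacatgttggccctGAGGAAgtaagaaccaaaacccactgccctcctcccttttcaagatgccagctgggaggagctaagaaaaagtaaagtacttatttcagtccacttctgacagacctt
F13a1 had 1 such match, from base -66 to -61 before the start, Fcgr4 had 1 from -22 to -17 and Ly6c2 had 1 from -108 to -103. Chil3, Cebpb and Ms4a6c had none in this window. Of the genes not shown, Fcgr1 had 1 match, from -55 to -50. Ace had 2 before its first listed start, from -217 to -212 and from -89 to -84, and 0 before its second. The count depends on the start taken: before a second listed start, Ly6c2 had 2 matches and F13a1 had 0. Those of Ly6c2 were from -142 to -137, which is the site shown above, and from -8 to -3. Of 32851 promoters in the table, 23.25% held a match in the same 250 bases. The pair TTGCNNAA, bound by factors of the C/EBP family, was found in none of these stretches and in 9.56% of all promoters. A table entry was found for 8 of the 10 genes, and where a gene had several starts the first listed is shown.

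Among the genes of classical monocytes, Ly6c2 encodes a form of the Ly6C surface antigen (gene 100041546, chromosome 15, 75108161 to 75112066 on RefSeq GRCm38.p6, as all coordinates here). It was at 14.9, 12.2 and 37.6 FPKM in busulfan with L.J. libraries 1 to 3, at 24.4, 88.2 and 45.1 with busulfan alone, at 11.1, 57.1 and 34.7 with L.J. alone, and at 31.6, 10.1 and 9.35 in the controls. Busulfan 2 was the highest library and a control the lowest, and all groups overlapped. The means were 21.5 ± 13.9, 52.6 ± 32.5, 34.3 ± 23.0 and 17.0 ± 12.6 FPKM in the same order of groups (SD, n = 3 each). Busulfan minus control was 1.60 on the log2(FPKM + 1) scale (SE 0.70, limma adjusted p = 0.403), and busulfan with L.J. minus busulfan was -1.23 (SE 0.70, limma adjusted p = 0.319). Ly6c1, a neighbour of nearly the same sequence that can share reads with Ly6c2, was between 9.47 and 35.5 FPKM, and the ratio of Ly6c2 to Ly6c1 ran from 0.69 in library 2 of busulfan with L.J. to 4.53 in busulfan 2. Ly6a, a further relative, was between 60.2 and 507 FPKM. The division of reads between these genes was not tested.

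Chil3, also called Ym1, is a secreted chitinase-like protein of classical monocytes, activated macrophages and granulocyte precursors (gene 12655, chromosome 3, 106147554 to 106167564). It was at 33.8, 23.6 and 11.1 FPKM with busulfan and L.J., at 678, 190 and 26.3 with busulfan alone, at 31.2, 59.0 and 26.8 with L.J. alone, and at 23.4, 15.6 and 12.1 in the controls. Busulfan 1 was 39.8 times and busulfan 2 was 11.2 times the control mean, while busulfan 3 was 1.55 times it, within the range of the combined group and just below every L.J. library. Every busulfan library was above every control, and so was every L.J. library. Busulfan minus control was 3.13 on the log2 scale (SE 0.96, 95% interval 0.99 to 5.27, limma adjusted p = 0.271), and busulfan with L.J. minus busulfan was -2.81 (SE 0.96, interval -4.95 to -0.67, limma adjusted p = 0.130). L.J. minus control was 1.11 (SE 0.96, limma adjusted p = 0.673). Its relative Chil4 was listed at 0 in 11 libraries and at 0.05 FPKM in busulfan 1. Chil1, another relative, was at 12.1, 10.1 and 8.07 FPKM with both agents, at 147, 62.1 and 12.6 with busulfan, at 12.1, 18.3 and 11.1 with L.J. and at 9.59, 6.99 and 6.59 in controls, highest in busulfan 1 and 2 as Chil3 was.

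F13a1, the catalytic A subunit of coagulation factor XIII, which crosslinks fibrin and is made by monocytes and megakaryocytes (gene 74145, chromosome 13, 36867178 to 37050244), had the same 2 high libraries. It was at 4.35, 5.62 and 4.29 FPKM with busulfan and L.J., at 19.2, 14.9 and 2.68 with busulfan alone, at 6.95, 7.48 and 3.91 with L.J. alone, and at 4.91, 2.79 and 3.45 in the controls. Busulfan 3 was the lowest of all 12 libraries, so the busulfan group held both the highest and the lowest value. The difference of busulfan minus control was 1.19 (SE 0.51, limma adjusted p = 0.383) and busulfan with L.J. minus busulfan was -0.89 (SE 0.51, limma adjusted p = 0.318).

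Ms4a6c, a membrane protein of the MS4A family that is abundant in monocytes (gene 73656, chromosome 19, 11469353 to 11487182), ran the other way. It was at 101, 86.5 and 81.7 FPKM with busulfan and L.J., at 54.9, 75.0 and 87.6 with busulfan alone, at 75.5, 84.7 and 76.8 with L.J. alone, and at 90.2, 75.6 and 84.9 in the controls. Here busulfan 1 was the lowest and busulfan 2 the next lowest, and all groups overlapped. The difference of busulfan minus control was -0.22 (SE 0.16, 95% interval -0.58 to 0.13, limma adjusted p = 0.566), and busulfan with L.J. minus busulfan was 0.32 (SE 0.16, interval -0.03 to 0.67, limma adjusted p = 0.250). These were the narrowest intervals of the 10 genes. Its relatives Ms4a6b and Ms4a6d were between 39.2 and 68.8 FPKM and between 3.41 and 12.7 FPKM in the 12 libraries.

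Of the receptors, Csf1r binds colony stimulating factor 1 and interleukin 34 and marks the whole line of monocytes and macrophages (gene 12978, chromosome 18, 61105572 to 61131139). It was at 71.0, 80.9 and 76.2 FPKM with busulfan and L.J., at 55.0, 60.2 and 40.9 with busulfan alone, at 52.9, 66.4 and 78.3 with L.J. alone, and at 61.1, 43.8 and 60.5 in the controls. All 3 libraries with both agents were above all 3 with busulfan alone and above all 3 controls, and L.J. library 3 lay among them. The means were 76.0 ± 4.92 FPKM with both agents, 52.0 ± 9.96 with busulfan, 65.9 ± 12.7 with L.J. and 55.1 ± 9.82 in controls (SD, n = 3 each). Busulfan with L.J. minus busulfan was 0.56 (SE 0.19, interval 0.15 to 0.96, limma adjusted p = 0.115), and busulfan with L.J. minus control was 0.47 (SE 0.19, interval 0.06 to 0.88, limma adjusted p = 0.230). Busulfan minus control was -0.085 (SE 0.19, limma adjusted p = 0.860).

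Cd14, the coreceptor that hands lipopolysaccharide to Toll-like receptor 4 (gene 12475, chromosome 18, 36725064 to 36726815), was at 3.24, 4.05 and 3.62 FPKM with busulfan and L.J., at 8.93, 4.83 and 1.43 with busulfan alone, at 2.50, 3.73 and 3.04 with L.J. alone, and at 2.44, 2.07 and 2.71 in the controls. All 3 libraries with both agents were above all 3 controls, while busulfan alone gave the 2 highest values and the lowest. Busulfan with L.J. minus control was 0.45 (SE 0.38, limma adjusted p = 0.521) and busulfan minus control was 0.61 (SE 0.38, limma adjusted p = 0.519).

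Fcgr1, the high affinity receptor for immunoglobulin G of monocytes and macrophages (gene 14129, chromosome 3, 96282909 to 96293969), was the lowest of the 10 in mean level. It was at 2.51, 2.96 and 2.96 FPKM with busulfan and L.J., at 3.54, 4.40 and 1.68 with busulfan alone, at 1.94, 2.93 and 4.59 with L.J. alone, and at 2.38, 1.24 and 2.27 in the controls. The libraries with both agents were all above the controls and the other pairs of groups overlapped. Busulfan with L.J. minus control was 0.38 (SE 0.28, limma adjusted p = 0.460), busulfan minus control 0.47 (SE 0.28, limma adjusted p = 0.513) and L.J. minus control 0.46 (SE 0.28, limma adjusted p = 0.573).

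Among the genes of nonclassical monocytes, Fcgr4 is an activating receptor for immunoglobulin G that nonclassical monocytes, macrophages and neutrophils carry (gene 246256, chromosome 1, 171018926 to 171029761). It was at 8.45, 8.76 and 7.81 FPKM with busulfan and L.J., at 14.0, 15.7 and 7.20 with busulfan alone, at 5.21, 9.85 and 12.8 with L.J. alone, and at 9.83, 5.91 and 9.19 in the controls. All groups overlapped. Busulfan minus control was 0.47 (SE 0.31, limma adjusted p = 0.544), busulfan with L.J. minus busulfan was -0.44 (SE 0.31, limma adjusted p = 0.416), and busulfan with L.J. minus control was 0.031 (interval -0.66 to 0.72, limma adjusted p = 0.969).

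Ace, the angiotensin converting enzyme, is a surface marker of mouse nonclassical monocytes and is also made by vascular endothelium (gene 11421, chromosome 11, 105967948 to 105989964). It was at 9.32, 9.34 and 16.1 FPKM with busulfan and L.J., at 6.12, 11.4 and 9.81 with busulfan alone, at 22.0, 9.32 and 14.5 with L.J. alone, and at 12.2, 9.69 and 19.5 in the controls. It was lowest in busulfan 1, where Chil3, F13a1, Cebpb and Cd14 were highest. The difference of busulfan minus control was -0.53 (SE 0.34, limma adjusted p = 0.531), and no pair of groups was free of overlap.

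Cebpb, the transcription factor C/EBP beta, is needed in mice for the survival of nonclassical monocytes and also acts in emergency granulocyte production (gene 12608, chromosome 2, 167688915 to 167690432). It was at 3.40, 3.14 and 5.55 FPKM with busulfan and L.J., at 14.1, 10.6 and 3.77 with busulfan alone, at 5.84, 7.27 and 6.44 with L.J. alone, and at 4.75, 4.84 and 5.67 in the controls. Every L.J. library was above every control and above every library with both agents. Busulfan with L.J. minus busulfan was -0.94 (SE 0.34, interval -1.68 to -0.19, limma adjusted p = 0.141), and busulfan with L.J. minus L.J. was -0.61 (SE 0.34, limma adjusted p = 0.918). L.J. minus control was 0.30 (SE 0.34, limma adjusted p = 0.747).

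In order of group means, control was lowest and busulfan highest for 6 genes, Ly6c2, Fcgr1, Fcgr4, Cd14, F13a1 and Chil3. For Cebpb busulfan was also highest, with busulfan and L.J. lowest. Csf1r, Ms4a6c and Ace had busulfan lowest. Neighbouring groups in these orders overlapped, except for busulfan with L.J. above control for Fcgr1 and L.J. above control for Cebpb.

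**Figure D2:**
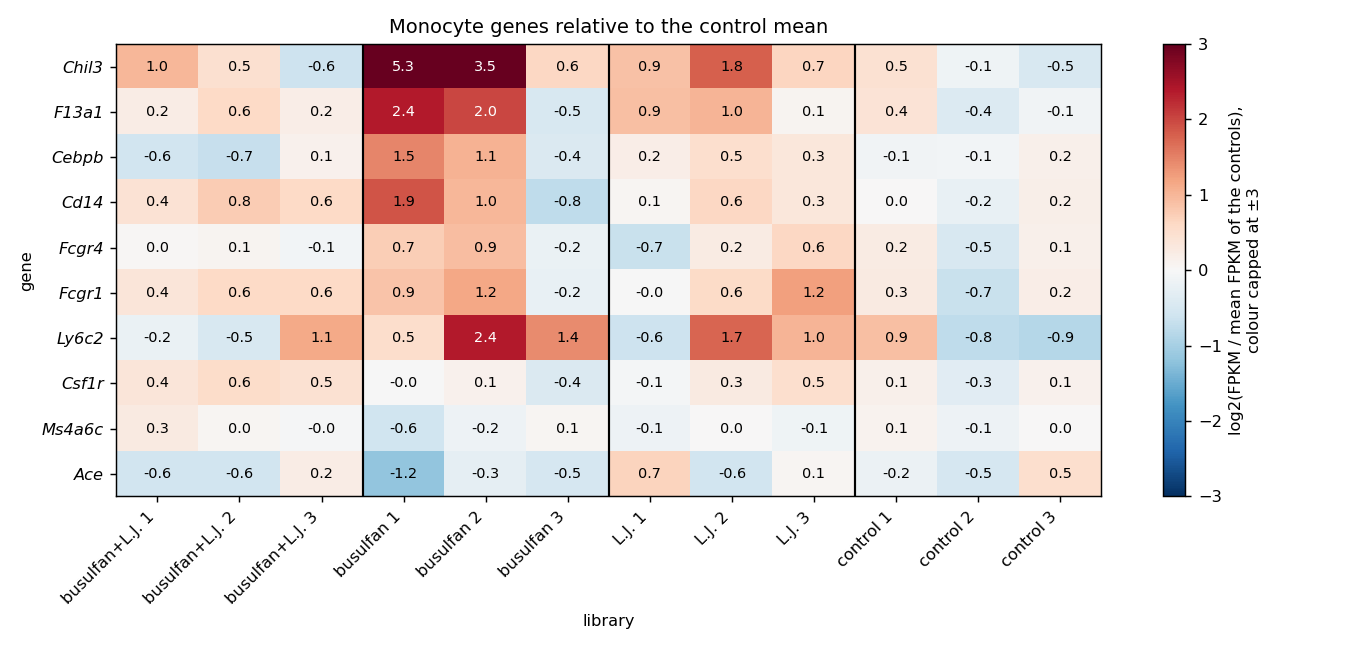
Each cell is log2 of a library's FPKM over the mean FPKM of the 3 controls, for the 10 genes (rows) and 12 libraries (columns, separated by group), with red above and blue below the control mean and the colour capped at 3. Chil3 stands at 5.3 and 3.5 in busulfan 1 and 2 and F13a1 at 2.4 and 2.0, while busulfan 3 is near or below 0 except for Ly6c2 and Chil3.

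Each comparison was tested with limma across all 13138 genes (Benjamini-Hochberg adjusted p, threshold 0.05), and the comparisons share groups with one another. In busulfan against control, none of the 10 monocyte genes was called, against 4 genes of all those tested, or 0.0304%. Ly6c2, F13a1 and Chil3, 3 of 10, had an unadjusted p below 0.05, as 12.2% of all genes did. Of the 10 genes 7 were higher, as 44.6% of all genes were, and 3 lower, with a median log2 difference of 0.54, beside -0.027 over all genes tested. Chil3 alone had groups that did not overlap, 1 of 10, while 5.62% of all genes were higher without overlap.

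For both agents against busulfan alone, the comparison that the title of the series names, none of the 10 genes was called, against 1.66% of all genes, and Csf1r, Cebpb and Chil3 had an unadjusted p below 0.05, as 23.2% of all genes did. Of the 10 genes 3 were higher, Csf1r, Ms4a6c and Ace, as 56.9% of all genes were, and 7 lower, with a median of -0.31 beside 0.048 over all genes. Those 3 were the 3 that were lower in busulfan than in control, but both comparisons use the same busulfan libraries. Csf1r alone had groups that did not overlap, and 14.1% of all genes were higher without overlap.

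In both agents against control none was called, against 0.0609% of all genes. Csf1r, 1 of 10, had an unadjusted p below 0.05, as 19% of all genes did. The median was 0.31 beside 0.043 over all genes, with 8 higher, as 56.1% of all genes were, and 2 lower. Groups did not overlap for Csf1r, Fcgr1 and Cd14, all higher, 3 of 10, against 19.4% of all genes. L.J. alone against control also gave no call, against 0.0304% of all genes, and no unadjusted p below 0.05, against 8.91%. Here 9 were higher, as 54% of all genes were, and 1 lower, with a median of 0.28 beside 0.021. Groups did not overlap for Cebpb and Chil3, both higher, 2 of 10 against 11.4%. Both agents against L.J. alone gave no call among the members or among all genes (0%), and no member with an unadjusted p below 0.05, against 5.61%. Here 3 were higher, as 51.2% of all genes were, and 7 lower, with a median of -0.18 beside 0.0046. Groups did not overlap for Cebpb, lower, 1 of 10 against 7.91%.

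**Figure D3:**
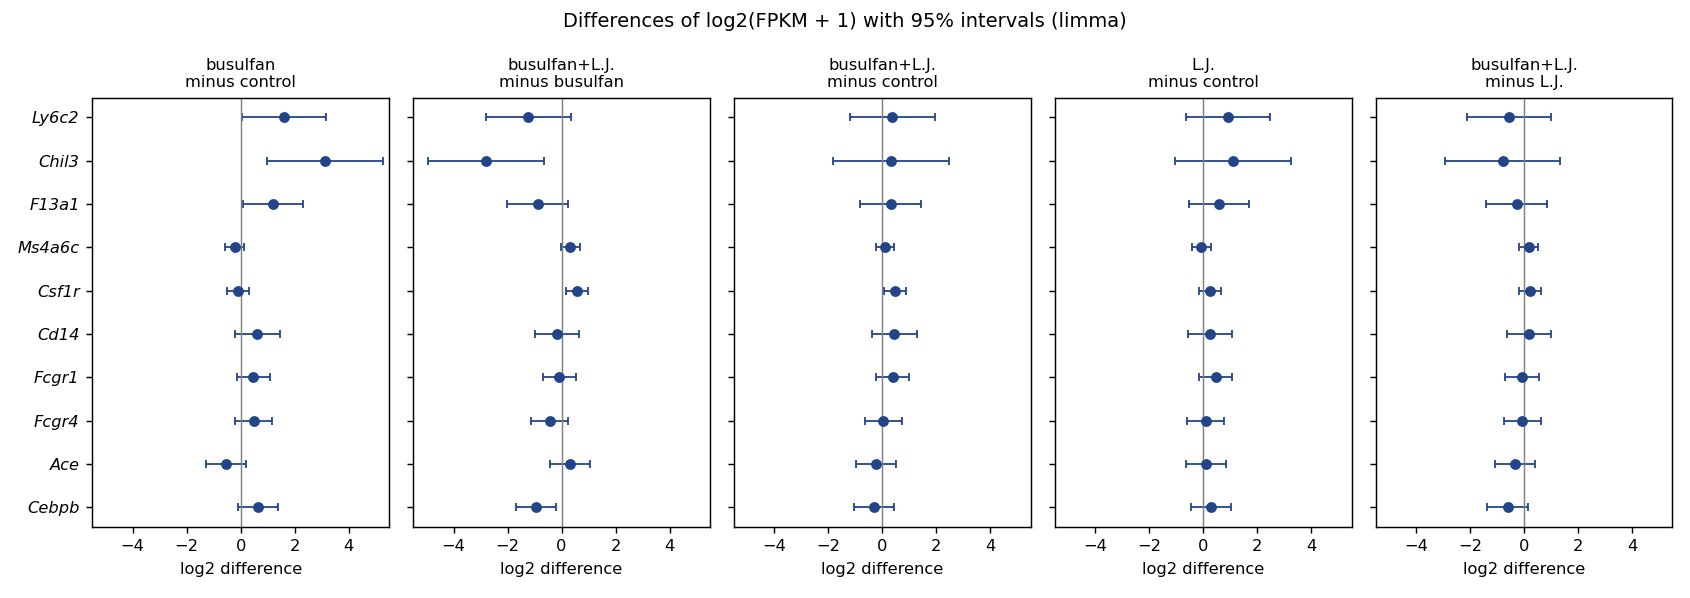
Log2 differences of FPKM + 1 (horizontal axis) with 95% intervals from limma, for the 10 genes (rows) in 5 comparisons (panels, the first named group minus the second). For busulfan minus control the intervals of Chil3, F13a1 and Ly6c2 lie above 0. For busulfan with L.J. minus busulfan those of Chil3 and Cebpb lie below 0. That of Csf1r lies above 0 in both comparisons of the combined group with busulfan and with control. No difference passed the adjusted threshold.

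Whether the L.J. effect differed with and without busulfan was tested as an interaction. No member was called and no gene of all those tested was (0%), while Cebpb and Chil3 had an unadjusted p below 0.05, as 11.5% of all genes did. Of the 10 genes 3 were higher, as 53.4% of all genes were, and 7 lower. The interaction was -3.92 for Chil3 (SE 1.35, limma adjusted p = 0.323), -1.24 for Cebpb (SE 0.48, limma adjusted p = 0.353) and -2.15 for Ly6c2 (SE 0.99, limma adjusted p = 0.447).

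Leaving out 1 library, busulfan 3, changed these calls. Without busulfan library 3, limma called 4 of the 10 genes in busulfan against control, all higher, while 6.27% of all genes were called. They were Chil3 at 4.37 (adjusted p = 0.00268), F13a1 at 1.95 (adjusted p = 0.00226), Cd14 at 1.16 (adjusted p = 0.0125) and Cebpb at 1.12 (adjusted p = 0.0114). In busulfan with L.J. against busulfan, Chil3, F13a1 and Cebpb were then called, all lower, while 10.4% of all genes were called, and the same 3 were called in the interaction, with 3.87% of all genes. These values rest on busulfan libraries 1 and 2, the libraries of high neutrophil and acinar score. Without those libraries and L.J. library 3, busulfan minus control was -0.33 for F13a1, -0.35 for Cebpb and -0.48 for Cd14, the opposite direction. The median of the 10 genes was then -0.24, with only busulfan 3 left in its group. Chil3 kept its direction for busulfan minus control in all 25 alternative settings, at 0.65 or more. Several of these settings, such as leaving out a library of neither group, cannot change this difference. All but the setting without busulfan 1, busulfan 2 and L.J. 3 still hold busulfan 1 or 2.

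**Figure D4:**
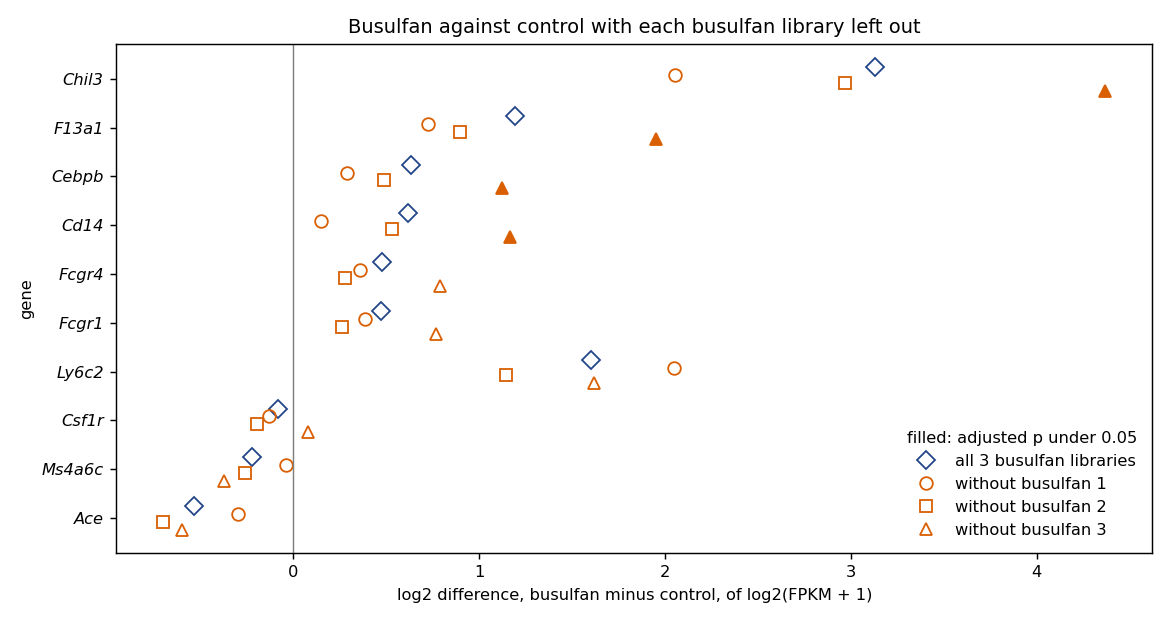
Log2 difference, busulfan minus control (horizontal axis), of each monocyte gene (rows) with all 3 busulfan libraries (diamonds) and with busulfan library 1, 2 or 3 left out (circles, squares, triangles). Filled symbols passed the adjusted threshold; only the values without busulfan 3 for Chil3, F13a1, Cebpb and Cd14 did.

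The levels of neutrophil transcripts ran beside those of several members. S100a8, of the neutrophil cytosol, stood at 282, 180 and 98.8 FPKM with both agents, at 7700, 2424 and 237 with busulfan, at 188, 379 and 173 with L.J. and at 172, 117 and 81.6 in controls. Mpo, the myeloperoxidase of granulocyte precursors, was at 768, 241 and 19.7 FPKM with busulfan, against 9.76 to 30.8 FPKM in the other 9 libraries. The summed level of the 15 neutrophil genes ran from 452 to 1157 FPKM with both agents, from 1476 to 30155 with busulfan, from 961 to 1798 with L.J. and from 640 to 983 in controls. In busulfan against control 14 of these 15 genes were higher (median 3.10, none called), and in busulfan with L.J. against busulfan all 15 were lower, with a median of -3.09. There 3 were called, Cxcr2 (-1.03, limma adjusted p = 0.0377), Pglyrp1 (-3.09, limma adjusted p = 0.0377) and Stfa2 (-5.92, limma adjusted p = 0.0396). Of all genes, 1.66% were called in this comparison. That share depended on the setting: it was 0% in a fit of the compared groups alone, 0.122% when rescaled without acinar genes and 15.1% with library weights. Whether these 3 genes stayed called in other settings was not tested. The 8 granulocyte precursor genes all stood higher in busulfan than in control (median 3.63), none of them called. Defining markers of both lists (S100a8, S100a9, Ly6g, Mpo, Elane and Prtn3) were above 0 in every library. Red pulp macrophage genes were higher in 3 of 12 with busulfan against control, with a median of -0.079, and in 9 of 12 with both agents against busulfan, with a median of 0.34, none called. The acinar list was at a summed 15.1 to 207 FPKM with both agents, 217 to 58081 with busulfan, 98.9 to 6481 with L.J. and 9.43 to 10.8 in controls, and Amy2a5, one of its defining markers, was listed at 0 in 2 controls. With the acinar score as a covariate, the median of the monocyte genes for busulfan minus control was -0.084, against 0.54 without it. No member was called there, and no gene of all those tested was (0%). Busulfan 1 had the highest acinar score and the highest neutrophil score. Busulfan 2 came next in neutrophil score. In acinar score L.J. 3 came next, at 8.06 against 7.10 in busulfan 2, with a neutrophil score of 4.34. The part of neutrophils or macrophages in the values of the monocyte genes was not tested.

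**Figure D5:**
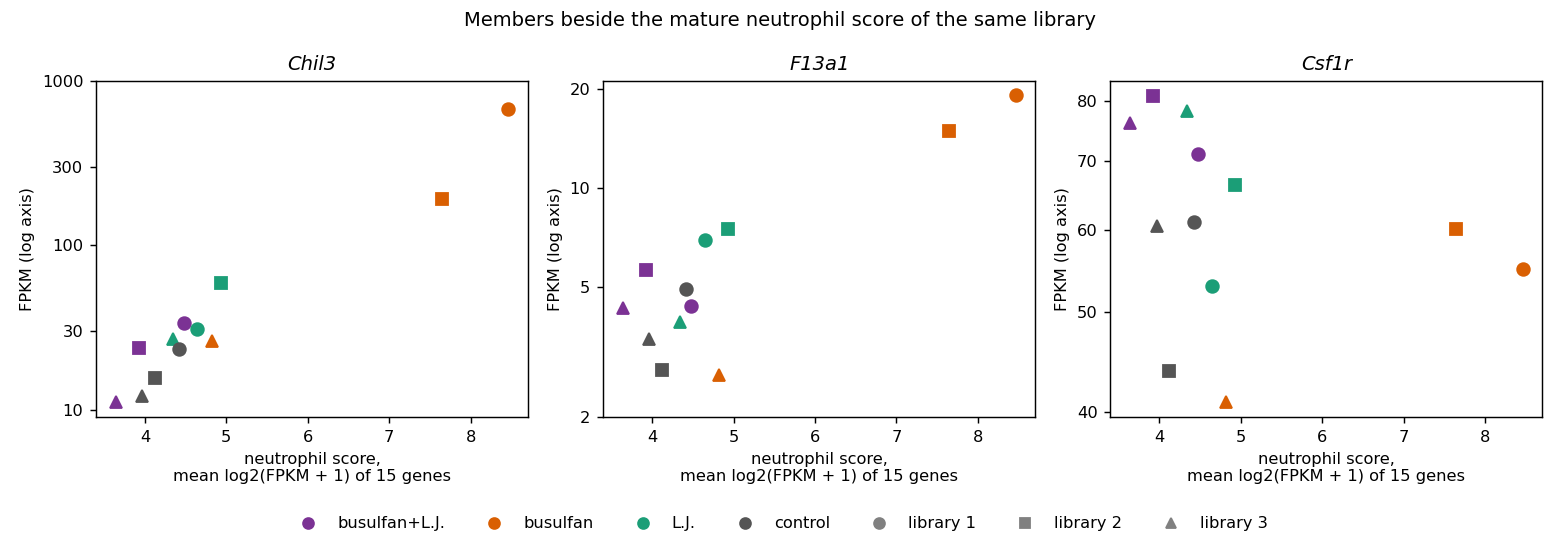
FPKM of Chil3, F13a1 and Csf1r (vertical axes, logarithmic) against the neutrophil score of the same library, the mean log2(FPKM + 1) of 15 mature neutrophil genes (horizontal axis), with 1 point per library. Busulfan libraries 1 and 2, at scores of 8.46 and 7.64, hold the 2 highest values of Chil3 and F13a1, while Csf1r there is within the range of the other libraries.

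The genes most like each member over the 12 libraries, by Pearson r of log2(FPKM + 1), differed between members. Chil3 was most like Ltf (r = 0.996) and Camp (r = 0.994), proteins of neutrophil secondary granules. Cd14 was most like Ifitm1 (r = 0.98) and Dock5 (r = 0.97), F13a1 like Vldlr (r = 0.96) and Cldn15 (r = 0.96), and Cebpb like Ifitm5 (r = 0.95) and Bcat2 (r = 0.94). Csf1r was most like Pla2g15, a lysosomal phospholipase (r = 0.95), and Eng, the coreceptor endoglin of endothelium (r = 0.95). Fcgr1 was most like Grn, the lysosomal progranulin (r = 0.93), and Tlr13, an endosomal receptor for bacterial RNA (r = 0.93). Fcgr4 was most like Sirpa, an inhibitory receptor of myeloid cells (r = 0.89), and Fkbp2 (r = 0.89). For Ly6c2 the nearest genes were I830127L07Rik (r = 0.85) and Sirpb1a (r = 0.83), for Ms4a6c Crbn (r = 0.93) and Ifnar1 (r = 0.92), and for Ace Taf8 (r = 0.91) and Cryab (r = 0.90). Within the list, r was highest for F13a1 with Chil3 (0.91) and for Cd14 with F13a1 (0.86), and lowest for Ms4a6c with Cebpb (-0.83). For Chil3, F13a1, Cebpb, Cd14 and Fcgr4 the 2 highest points are busulfan libraries 1 and 2, and all genes of a library share its depth and scaling.

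Of 14 other genes of classical monocytes, none was called in any comparison. In busulfan against control 9 were higher and 5 lower, with a median of 0.36, and in busulfan with L.J. against busulfan 7 were higher and 7 lower, with a median of 0.0094. Ccr2, the chemokine receptor by which classical monocytes leave the marrow, was at 10.3, 11.3 and 8.98 FPKM with both agents, at 8.63, 20.4 and 8.07 with busulfan, at 7.64, 12.7 and 8.98 with L.J. and at 8.99, 7.87 and 8.89 in controls, so that busulfan 2 alone was high. It was the library in which Ly6c2 was highest too. S100a4, a calcium-binding protein of motile myeloid cells, averaged 71.9 ± 2.77 FPKM with busulfan and 45.7 ± 0.90 in controls (SD, n = 3 each), a difference of 0.64 with no overlap (SE 0.13, limma adjusted p = 0.136). Ly86, a partner of the receptor RP105, averaged 110 ± 9.26 FPKM with both agents and 73.6 ± 14.1 with busulfan, a difference of 0.59 (SE 0.14, limma adjusted p = 0.0571).

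Of 10 other genes of nonclassical monocytes, none was called either, with 2 higher and 8 lower in busulfan against control (median -0.14) and 7 higher and 3 lower with both agents against busulfan (median 0.16). Nr4a1, the nuclear receptor that nonclassical monocytes of mice require, averaged 13.2 ± 2.66 FPKM with busulfan and 19.1 ± 4.69 in controls (-0.49, SE 0.20, limma adjusted p = 0.369). Cx3cr1, the fractalkine receptor, averaged 10.2 ± 1.92 FPKM with busulfan and 11.7 ± 2.80 in controls. Spn, the surface sialophorin CD43, which lymphocytes also carry, averaged 59.5 ± 10.9 FPKM with both agents and 86.0 ± 9.73 with busulfan (-0.53, SE 0.17, limma adjusted p = 0.101).

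Among 9 transcription factors of the monocyte line no gene was called, with a median of -0.20 for both agents against busulfan. Irf8, which directs progenitors to monocytes rather than granulocytes, averaged 106 ± 11.4 FPKM with both agents and 75.8 ± 13.9 with busulfan (0.49, SE 0.15, limma adjusted p = 0.0930). Cebpa, which starts the granulocyte and monocyte line, averaged 9.40 ± 2.29 FPKM with both agents and 15.9 ± 3.92 with busulfan (-0.70, SE 0.23, limma adjusted p = 0.111). Of 10 growth factors, receptors and chemokines, 6 were tested and none called. Il34, the second ligand of the Csf1r receptor, averaged 8.49 ± 1.09 FPKM with both agents and 5.32 ± 0.14 with busulfan (0.58, SE 0.15, limma adjusted p = 0.0689), and Csf1, its first ligand, 33.1 ± 5.23 and 23.6 ± 5.51 FPKM in the same order (0.48, SE 0.17, limma adjusted p = 0.136). Csf2rb2, a beta chain used by interleukin 3, averaged 6.10 ± 0.26 FPKM with both agents and 12.4 ± 3.40 with busulfan (-0.88, SE 0.20, limma adjusted p = 0.0550), and Csf2ra, the alpha chain for colony stimulating factor 2, 36.9 ± 1.79 and 67.4 ± 22.5 FPKM (-0.79, SE 0.22, limma adjusted p = 0.0813).

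Partners of the Fc receptors, of CD14, of ACE and of factor XIII gave no call. Of 8 genes of Fc receptor signalling 5 were higher and 3 lower with both agents against busulfan, and Fgr, a kinase of the Src family, averaged 23.0 ± 0.45 FPKM with both agents and 32.1 ± 5.38 with busulfan (-0.45, SE 0.13, limma adjusted p = 0.0859). Fcgr3, a low affinity Fc receptor next to Fcgr4, stood at 36.2, 35.0 and 14.4 FPKM with busulfan and at 18.7, 13.7 and 20.4 in the controls, so that busulfan 1 and 2 were again high. Of 8 genes of lipopolysaccharide sensing 7 were higher with busulfan than in control, with a median of 0.16, and Tirap, an adaptor of Toll-like receptor 4, averaged 5.43 ± 0.15 FPKM with both agents and 7.91 ± 1.54 with busulfan (-0.46, SE 0.13, limma adjusted p = 0.0807). Of the renin and angiotensin genes 3 of 8, with Ace among them, were tested. F10, coagulation factor X, which monocytes and macrophages make as well as liver, averaged 3.14 ± 0.35 FPKM with both agents and 10.9 ± 7.09 with busulfan (-1.34, SE 0.35, limma adjusted p = 0.0689). For both agents minus busulfan, Tfpi, the inhibitor of the tissue factor pathway, was higher (0.66, limma adjusted p = 0.0648), as was Thbd, thrombomodulin (0.48, limma adjusted p = 0.314), neither past the threshold. The other genes of smallest p in these lists were Emb (0.76, limma adjusted p = 0.271), Pou2f2 (-0.80, limma adjusted p = 0.341) and Agt, the angiotensin precursor (-0.74, limma adjusted p = 0.375), for busulfan minus control. For both agents minus busulfan they were Eno3 (0.39, limma adjusted p = 0.141), the kinases Lyn (0.33, limma adjusted p = 0.123) and Syk (0.43, limma adjusted p = 0.151), and the angiotensin receptor Agtr1a (0.62, limma adjusted p = 0.209). For both agents minus control they were the transcription factor Runx1 (-0.39, limma adjusted p = 0.191), the kinase Irak4 (0.27, limma adjusted p = 0.232) and the adaptor Ticam1 (-0.42, limma adjusted p = 0.234).

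Lists of other cell types were read in the same comparisons. All 8 B cell genes were lower in busulfan than in control, with a median of -0.73 and none called. In both agents against busulfan 7 of 8 were higher, with a median of 0.57. Cd79b, which signals for the antigen receptor, was called there (1.03, limma adjusted p = 0.0441), as 1.66% of all genes were. Whether it stayed called in other settings was not tested. The part of B cells in the values of genes of the monocyte and partner lists, Irf8, Ly86, Lyn, Syk and Pou2f2 among them, was not tested. Of 10 dendritic cell genes 3 were higher and 7 lower in busulfan against control, and of 7 T cell genes tested 5 were higher and 2 lower, none called. Of 11 hepatocyte genes tested all were lower in busulfan than in control, with a median of -1.28 and none called, and Alb, serum albumin, was at 2.34, 1.74 and 1.00 FPKM with busulfan and at 7.27, 34.2 and 14.7 in controls. Control 2, with the highest hepatocyte score, also had the lowest score of the 10 monocyte genes, 3.27, against 3.55 to 4.64 in the other libraries. Without control 2 no member was called in any comparison. Of all genes, 0.211% were then called for both agents minus busulfan, 0.0226% for both agents minus control and 0% in the others. The median of the members was then 0.41 for busulfan minus control and 0.14 for both agents minus control, against 0.54 and 0.31 with it. The part of hepatocyte RNA was not tested.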

How the data were processed

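The table deposited by the authors gives FPKM, per the file headers, as 1 value for each gene in each library with 2 decimals, beside a symbol and an NCBI gene number. Bowtie 0.12.2 and mm10 are named in the submitters' processing notes without a role. The counting tool, annotation, strand handling and filters are not stated in the labels or the header. Columns were matched to samples by name, and groups come from the labels. Whole fragments were not recovered: in 1517 sparse genes the lowest value above 0 had a median of 0.04 FPKM, near the rounding step of 0.01, so no count test was run.

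log2(FPKM + 1) was fitted with 1 mean per group in limma 3.58.1 (R 4.3.3; trend, robust), after a filter of at least 1 FPKM in 1 group mean. A fold on this scale understates changes of low genes. All 6 comparisons were adjusted by Benjamini-Hochberg over 13138 genes. The scripts were tested on simulated data. Symbols of 26 genes that a spreadsheet had turned into dates were restored by gene number. Plots used matplotlib 3.10.9.

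The members and gene lists were chosen with earlier results of these data known. Text names all members, their paralogs, the 2 genes most like each, and the 3 genes with the smallest p of each list of monocyte genes or partners. Of the lists of other cells, for which the same rule was set, it names the called genes and some markers only. Ccr2, Nr4a1, Cx3cr1, Csf1, S100a8, Mpo, Spic, Alb and Amy2a5 were chosen after their values were seen. Whether the numbers pair libraries across groups is not stated. Deviations from the group mean correlated at r = -0.31 to 0.33 in 18 same-numbered pairs, 8 of them above 0.1. In pairs of other numbers r was -0.40 to 0.37. These overlapping ranges cannot decide whether numbers pair libraries.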

Additional observations from a re-analysis of the deposited data

How the results depend on the processing

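Values are FPKM with unknown depth, and 3 libraries per group limit precision. Of the 60 values (10 genes, 6 comparisons), planned settings other than leaving out a library moved 2 past the threshold and turned 4. With library weights 2 members were called in busulfan with L.J. minus busulfan, Cebpb and Chil3, while 15.1% of all genes were. For busulfan with L.J. minus control, Fcgr4, at 0.031 in the main fit, became -0.024 with quantile normalization and -0.037 when rescaled without acinar genes. With library weights Fcgr4 became -0.084 in this comparison, and Chil3 moved from 0.32 to -0.066. The cause was not tested. The other planned settings (median of ratios, no robust option, no filter, a filter of 5 FPKM, a pseudocount of 0.1 or of 5, a fit of the compared groups alone) called 0 members in every comparison. Of all genes they called from 0% to 5.81%. With the replicate number as a block the count was 0 in each comparison, against 0% to 0.419% of all genes. The median for busulfan minus control with this block was 0.54, the same as without it. Each group holds every replicate number once, so the block cannot change a difference between groups, only its p-value.

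Leaving out 1 library gave 0 to 4 called members and a median of 0.32 to 0.96 for busulfan minus control, 0 to 3 and -0.74 to -0.16 for busulfan with L.J. minus busulfan, and 0 to 3 and -0.91 to -0.34 for the interaction, with the most calls without busulfan 3. Directions turned in 20 such values and were kept in the others. Many of those kept could not turn, because a library left out of neither compared group does not enter the difference. The ranges were -0.24 to 0.076 for Csf1r, busulfan minus control; -0.17 to 0.41 for Ace and -0.15 to 0.42 for Fcgr4, L.J. minus control; -0.72 to 0.30 for Cd14 and -0.38 to 0.13 for Fcgr1, busulfan with L.J. minus busulfan. For busulfan with L.J. minus control they were -0.019 to 0.75 for Chil3, -0.17 to 0.15 for Fcgr4, -0.10 to 0.91 for Ly6c2 and -0.46 to 0.043 for Ace. For busulfan with L.J. minus L.J. they were -0.39 to 0.19 for Fcgr4 and -0.30 to 0.16 for Fcgr1, and for the interaction -0.98 to 0.040 for Cd14 and -0.095 to 0.48 for Ace.

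Both of the following settings were chosen after seeing the data. With the acinar score as a covariate the median of the members was -0.084 for busulfan minus control and 0.25 for the interaction. Single genes that turned were Fcgr1 -0.11, Fcgr4 -0.054, Cd14 -0.31, Ms4a6c 0.20 and Cebpb -0.29 for busulfan minus control; Fcgr4 -0.29, Cd14 -0.42, F13a1 -0.087, Ms4a6c 0.23, Cebpb -0.37 and Chil3 -0.080 for L.J. minus control. They were Fcgr1 0.40, Cd14 0.60 and Ms4a6c -0.028 for busulfan with L.J. minus busulfan, Fcgr4 -0.059 for busulfan with L.J. minus control, Fcgr1 0.25, Fcgr4 0.23, F13a1 0.24, Ms4a6c -0.062 and Chil3 0.12 for busulfan with L.J. minus L.J., and Fcgr1 0.36, Fcgr4 0.29, Cd14 1.02, Ms4a6c -0.26 and Cebpb 0.21 for the interaction. Without busulfan 1, busulfan 2 and L.J. 3 the medians were -0.24 for busulfan minus control, 0.18 for busulfan with L.J. minus busulfan and 0.074 for the interaction. Then Fcgr1 was -0.12, Fcgr4 -0.16, Cd14 -0.48, F13a1 -0.33, Ms4a6c 0.071 and Cebpb -0.35 for busulfan minus control, and Fcgr4 -0.15 for L.J. minus control. Fcgr1 was 0.51, Fcgr4 0.19, Cd14 0.93, F13a1 0.64 and Cebpb 0.046 for busulfan with L.J. minus busulfan, Fcgr1 0.16 and Fcgr4 0.19 for busulfan with L.J. minus L.J., and Fcgr1 0.28, Fcgr4 0.34 and Cd14 0.67 for the interaction. With the covariate no member was called in any comparison. Of all genes, 0.00761% were then called for L.J. minus control, 0.0533% for busulfan with L.J. minus control and 0% in the others. The lone busulfan library of the second setting is assumed to vary like the other groups, so only differences are given for it.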
